A study of Homo sapiens with 6 samples.

Results

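The 9 genes described here are known to be switched on by the transcription factor p53: MDM2, CCNG1, CDKN1A, BTG2, AEN, TP53INP1, ZMAT3, SESN1 and FDXR. They were chosen by name, and each symbol matched 1 row among the 61859 genes of the deposited table. All 9 of 9 passed the filter on low values that left 18460 genes for testing. The cells were OSC19SSZR, an oral squamous cell carcinoma line that tolerates sulfasalazine, a drug that blocks cystine uptake. They received FOXA1 siRNA (n = 3) or control siRNA (n = 3) by lipid transfection, and RNA was collected 48 h later. FOXA1 is a forkhead transcription factor known to make chromatin accessible, and the comparison asked what its knockdown changes in these resistant cells. The labels do not say how many siRNA sequences were used.

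The tumour suppressor p53 binds a pair of short half-sites in DNA and raises genes that halt the cell cycle, repair DNA, adjust metabolism or kill the cell. MDM2 closes a feedback loop, since its protein marks p53 for degradation. CDKN1A encodes p21, an inhibitor of cyclin-dependent kinases through which p53 lowers many cell cycle genes by way of the DREAM repressor complex. Many p53 targets are also driven by other factors, among them its relative p63, which marks basal squamous epithelium.

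In 4 of the 9 genes, a 20-base match to the p53 consensus, 2 half-sites side by side with at most 3 mismatches, lay in a RefSeq promoter window. These matches are shown because genes that carry one took different directions. They run 5′ to 3′ on the strand of the gene (RefSeq, GRCh38.p14), with the match in capitals and up to 5 flanking bases in lower case, and RPS27L and GDF15 are the other p53 targets with the largest rise and the largest fall among those with a match.

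MDM2: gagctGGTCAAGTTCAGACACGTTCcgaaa
AEN: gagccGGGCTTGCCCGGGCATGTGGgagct
SESN1: cgtctGGACAAGTCTCCACAAGTCAgaaat
FDXR: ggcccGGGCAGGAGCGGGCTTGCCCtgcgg
RPS27L: aggagGGCCTAGAGCAGACAAGCCCgcccc
GDF15: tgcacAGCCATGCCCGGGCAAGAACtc

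The MDM2 stretch is chr12:68808918-68808947, on the plus strand in an intron before the internal start site, with 2 mismatches. The AEN stretch, chr15:88621301-88621330, lies on the plus strand in an untranslated or non-coding exon of GENCODE 29 and has 2 mismatches. The SESN1 stretch, chr6:109009013-109009042, is on the minus strand in an intron, before the start of a shorter transcript, with 3 mismatches. The FDXR stretch, chr17:74872991-74873020, is on the minus strand in an untranslated or non-coding exon, with 3 mismatches. The stretches of RPS27L (chr15:63157522-63157551, minus strand) and GDF15 (chr19:18386181-18386207, plus strand) have 3 mismatches each. That of RPS27L is in an untranslated or non-coding exon. That of GDF15 is in a coding exon, and its match begins after the start site. Both cores, C and G around 2 bases of any kind, were required in each half-site, and the consensus reads the same on both strands. The windows run over 300 bases, mostly before the start site, and 8 of the 9 genes had at least 1, with 16 windows in all. TP53INP1 has no entry. A match stood in 1.12% of all 35116 windows. Counted by gene, it stood in 4 of the 8 genes and in 10 of 46 other p53 targets, against 1.37% of all 27305 genes. These genes were listed as known p53 targets, so this excess is no independent evidence. Windows per gene also differed, with 16 for the 8 genes and 35116 for all 27305 genes. Of the 4 genes with a match, 1 rose, 1 fell and 2 did not pass the test. Of the 10 other targets with a match, 4 rose, 1 fell (GDF15), 3 did not pass, 1 was not tested and 1 had no reads. Over all tested genes, 26.8% rose and 25.0% fell by the same test (limma adjusted p under 0.05). The counts among the 4 and the 10 genes are too small to be read as a result about genes with a match. No match in BTG2, CCNG1, CDKN1A or ZMAT3 says only that these letters are not in these windows. The forkhead words TGTTTAC and TGTTTGC, searched on both strands, stood in no window of the 8 genes, against 3.42% and 3.89% of all windows. With only 16 windows, finding none at such shares does not show that these words are lacking. TATTTAC stood in 1 SESN1 window and in 2.67% of all windows.

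Recovered reads ranged from 16510125 to 25732569 per library with FOXA1 siRNA and from 17286040 to 19233157 with control siRNA. FOXA1 itself had 247, 192 and 189 normalized counts (gene counts divided by a size factor of the library) with FOXA1 siRNA, against 1477, 1378 and 1459 with control siRNA. All 7 squamous epithelial markers averaged 10 normalized counts or more, although KRT14 reached only 77.2 in its highest library, and their sum was 49391 to 52415 with FOXA1 siRNA and 48769 to 50844 with control siRNA. Single markers moved within that sum. KRT17 (log2 fold change 1.01, limma adjusted p = 7.00e-16) and EPCAM (0.14, limma adjusted p = 0.0215) were higher with FOXA1 siRNA. KRT5 (-0.18, limma adjusted p = 0.000472) and TP63 (-0.40, limma adjusted p = 4.75e-08) were lower. For KRT14, KRT6A and CDH1 the limma adjusted p was above 0.05. Of 5 fibroblast markers 3 had reads, with a sum of 92.5 to 135 against 144 to 163, nearly all from COL1A1, while DCN and LUM were listed at 0. All 3 endothelial markers had reads, with a sum of 279 to 302 against 542 to 571, nearly all from CDH5. PECAM1 had reads in 1 control siRNA library alone. The 4 leukocyte markers summed to 2.14 to 5.31 against 4.18 to 6.05. COL1A1 (log2 fold change -0.52, limma adjusted p = 0.00412) and CDH5 (-0.94, limma adjusted p = 1.14e-10) were lower with FOXA1 siRNA, and the part of such markers in the values below was not tested. Fewer cells of a type and less RNA per cell cannot be told apart in such bulk samples. Whether the replicates are separate cultures is not stated in the labels. The p-values therefore cover no more than the spread among these 6 libraries, part of which may be technical.

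The p53 targets did not move as a block. Of the 9 genes, 2 rose (CCNG1 and AEN), 4 fell (TP53INP1, BTG2, SESN1 and ZMAT3) and 3 did not pass the test (MDM2, CDKN1A and FDXR). A gene was called, higher or lower, when its limma adjusted p was under 0.05. At that threshold 51.8% of all tested genes were called, 26.8% higher and 25.0% lower with FOXA1 siRNA, so 6 calls among 9 genes stand near the background. A called change of at least 2-fold was seen in 5 of the 9, against 6.98% of all tested genes, although AEN and SESN1 sat close to that limit. The 9 genes were chosen with earlier results of these data known, so this count is no independent evidence. The count was 3 of 9 without FOXA1 siRNA replicate 2, where both fell short of 2-fold, and 4 or 5 in the other alternatives. In 7 of 9 genes the FOXA1 siRNA and control siRNA values did not overlap, against 57.6% of all tested genes. The median log2 fold change of the 9 was -0.071, against 0.0039 over all tested genes.

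**Figure D1:**
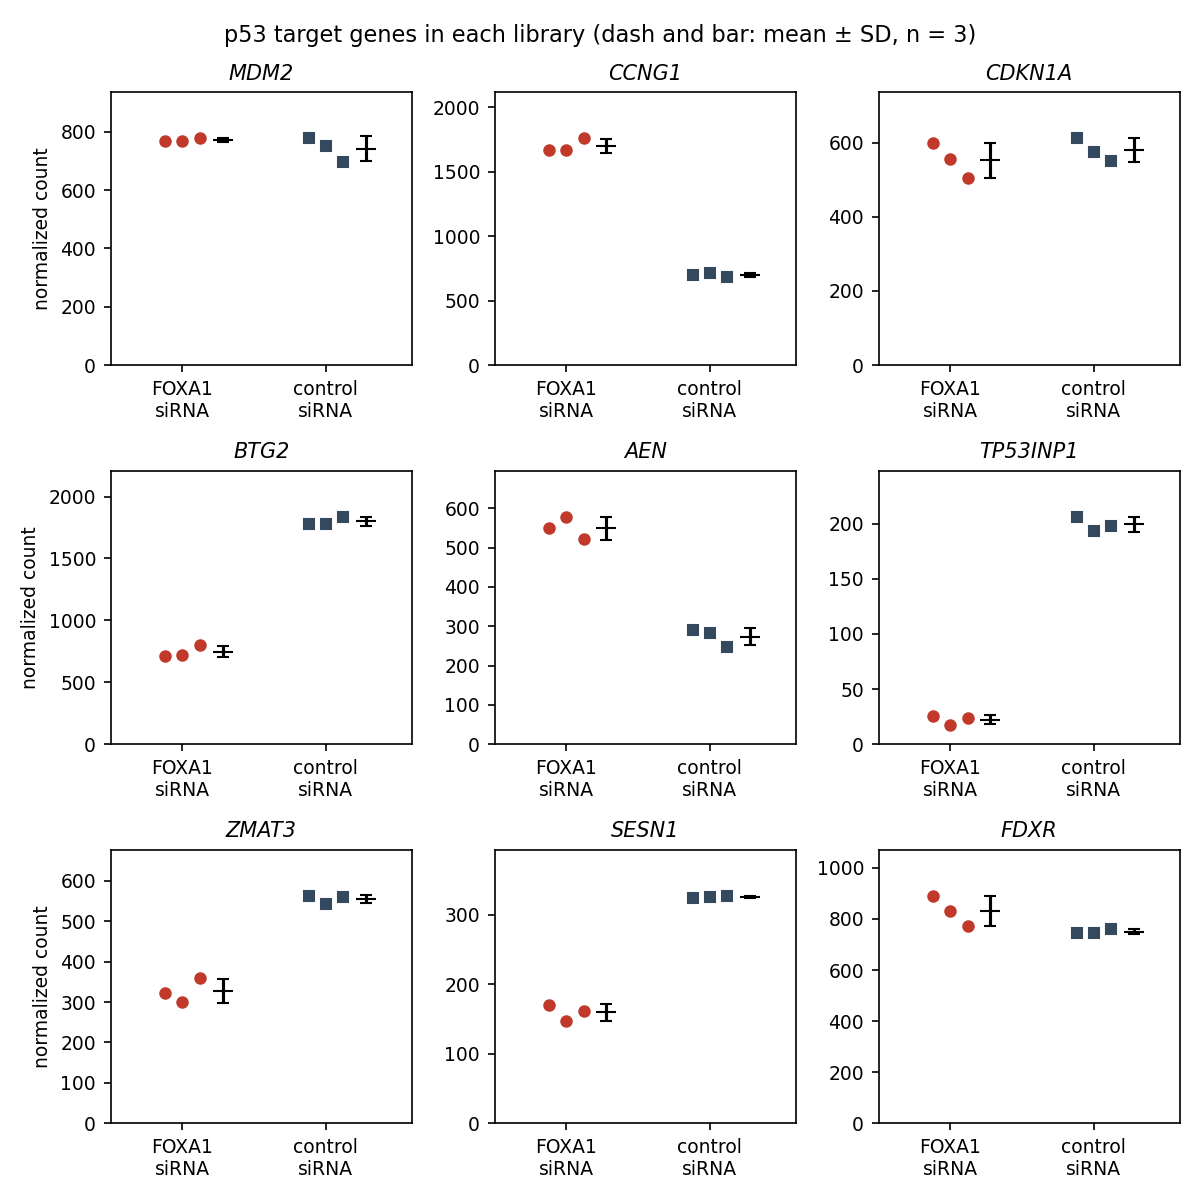
Normalized counts of the 9 p53 target genes in each library (vertical axes from 0), with FOXA1 siRNA libraries as circles on the left and control siRNA libraries as squares on the right, and the mean ± SD (n = 3) beside them. CCNG1, AEN, BTG2, TP53INP1, ZMAT3 and SESN1 form separate groups, FDXR groups lie close without overlap, and MDM2 and CDKN1A groups overlap.

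Both MDM2 and CCNG1 act back on p53. MDM2 (ENSG00000135679, chr12:68808176-68850686, plus strand; coordinates of all genes are those of GENCODE 29 on GRCh38), the ubiquitin ligase of p53, had 770, 768 and 780 normalized counts with FOXA1 siRNA and 780, 751 and 698 with control siRNA. The groups overlapped, and the highest control value was within 1 count of the highest FOXA1 siRNA value. The fold change was 1.04, with a 95% interval of 0.947 to 1.15 (limma adjusted p = 0.487). The log2 fold change was 0.058, and with equal library totals it was -0.039. An antisense gene, AC025423.4, shares 785 exon bases with MDM2, and a pseudogene on the same strand, AC025423.2, shares 439, so reads could be exchanged between them. AC025423.4 had 161, 175 and 173 normalized counts with FOXA1 siRNA and 182, 147 and 150 with control siRNA, a difference that did not pass (limma adjusted p = 0.546). AC025423.2 had 93.3, 89.5 and 86.6 against 79.9, 65.6 and 72.2, without overlap, a log2 fold change of 0.31 that was not called (limma adjusted p = 0.113). CPM, on the opposite strand, shares 133 exon bases with MDM2 and did not pass (0.17, limma adjusted p = 0.480).

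CCNG1 (ENSG00000113328, chr5:163437569-163446151, plus strand), cyclin G1, recruits a phosphatase that acts on MDM2. It had 1666, 1667 and 1764 normalized counts with FOXA1 siRNA, against 701, 716 and 684 with control siRNA. Every FOXA1 siRNA library was above every control library. The fold change was 2.42 (95% interval 2.23 to 2.64; log2 fold change 1.28 ± 0.06 SE, limma adjusted p = 4.08e-16). It was the rise of rank 133 among the 18460 tested genes.

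CDKN1A and BTG2 restrain the cell cycle, and BTG2 alone of these passed the test. CDKN1A (p21; ENSG00000124762, chr6:36676460-36687339, plus strand) had 598, 555 and 504 normalized counts with FOXA1 siRNA and 613, 574 and 550.2 with control siRNA. The groups overlapped over most of their range. The fold change was 0.952, with a 95% interval of 0.853 to 1.06 (limma adjusted p = 0.468). BTG2 (ENSG00000159388, chr1:203305491-203309602, plus strand), an antiproliferative protein that binds the CCR4-NOT deadenylase, had 716, 724 and 801 with FOXA1 siRNA, against 1780.3, 1778 and 1839 with control siRNA. All 3 FOXA1 siRNA libraries were below all 3 controls. BTG2 fell to 41.5% of its control level (log2 fold change -1.27 ± 0.06 SE, limma adjusted p = 7.87e-16).

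Apoptosis genes moved in opposite directions. AEN (ENSG00000181026, chr15:88621296-88632282, plus strand), an exonuclease that degrades DNA and RNA in dying cells, had 549, 579 and 521 normalized counts with FOXA1 siRNA and 291, 282 and 248 with control siRNA. The lowest FOXA1 siRNA library was well above the highest control. AEN rose 2.01-fold (95% interval 1.78 to 2.27; log2 fold change 1.00 ± 0.09 SE, limma adjusted p = 1.22e-10).

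TP53INP1 (ENSG00000164938, chr8:94925972-94949411, minus strand), a nuclear protein that promotes p53 activity and autophagy, changed most. It had 25.7, 17.5 and 23.7 normalized counts with FOXA1 siRNA, from 24, 23 and 20 reads, and 206, 194 and 198 with control siRNA, from 217, 192 and 189 reads. The 2 groups were far apart in every library. TP53INP1 fell to 11.5% of its control level, with a 95% interval of 0.0886 to 0.149 for the fold change (log2 fold change -3.12 ± 0.18 SE, limma adjusted p = 5.48e-14). Only 17 of the tested genes had a lower fold change. NDUFAF6, on the opposite strand, overlaps the gene but shares 0 exon bases with it, and its log2 fold change was -0.0068 (limma adjusted p = 0.960).

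ZMAT3 (ENSG00000172667, chr3:179017223-179072279, minus strand), a zinc finger protein that binds RNA and acts on splicing and mRNA stability, had 322, 300.5 and 361 normalized counts with FOXA1 siRNA, against 564, 544 and 559.6 with control siRNA. The groups did not overlap. ZMAT3 fell to 58.8% of its control level (log2 fold change -0.76 ± 0.08 SE, limma adjusted p = 1.04e-08), the smallest of the 4 falls.

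Metabolic targets were SESN1 and FDXR. SESN1 (ENSG00000080546, chr6:108986437-109094819, minus strand), a sestrin that restrains mTORC1, had 170.4, 146 and 161 normalized counts with FOXA1 siRNA and 324, 326 and 327 with control siRNA. The control libraries were nearly identical, and all FOXA1 siRNA libraries lay below them. SESN1 fell to 49.0% of its control level (log2 fold change -1.03 ± 0.10 SE, limma adjusted p = 1.85e-09). The antisense gene AL390208.1 shares 363 exon bases with SESN1 and had 45.0, 22.0 and 32.0 against 57.1, 51.4 and 68.0 (log2 fold change -0.86, limma adjusted p = 0.00387). Its part in the SESN1 value was not tested.

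FDXR (ENSG00000161513, chr17:74862497-74873031, minus strand), the mitochondrial reductase that passes electrons to ferredoxin, had 892, 832 and 772 normalized counts with FOXA1 siRNA and 747, 743 and 760.5 with control siRNA. The groups did not overlap, but the lowest FOXA1 siRNA library stood close to the controls. The fold change was 1.11 (95% interval 1.01 to 1.22; limma adjusted p = 0.072), which did not pass over all genes. Without FOXA1 siRNA replicate 3, the lowest of the treated libraries, FDXR passed as higher (log2 fold change 0.20, limma adjusted p = 0.0152, the lowest of a range up to 0.579 over its alternatives).

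Exact two-sided permutation tests of the 6 values of each gene gave p = 0.1 for the 7 genes without overlap, the smallest value that 3 against 3 samples allow, 0.3 for MDM2 and 0.5 for CDKN1A. In the authors' deposited table the log2 fold changes were -3.19 for TP53INP1, -1.27 for BTG2, -1.04 for SESN1, -0.77 for ZMAT3, 1.01 for AEN and 1.28 for CCNG1. The adjusted p of the authors' deposited table was at most 6.97e-12 for these 6 genes. It was 0.653 for MDM2, 0.645 for CDKN1A and 0.149 for FDXR in the authors' deposited table.

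**Figure D2:**
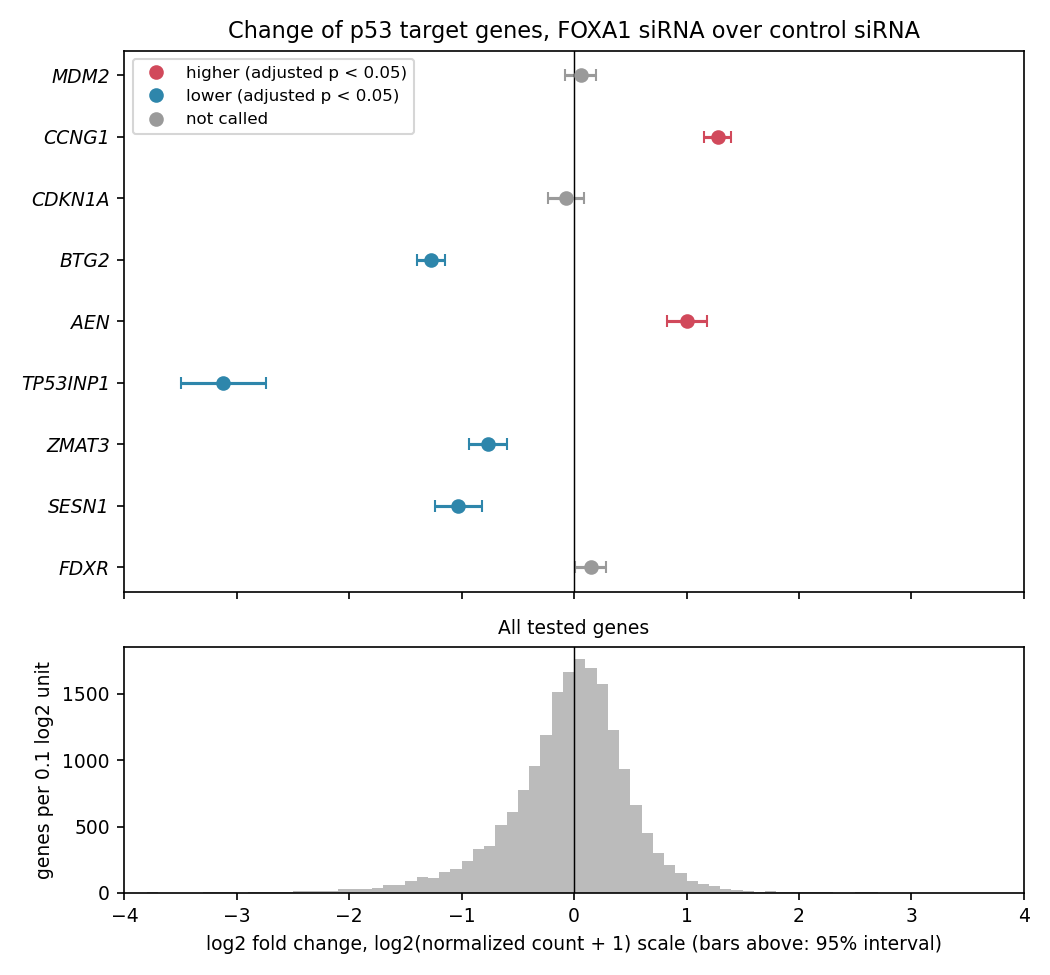
Log2 fold change (FOXA1 siRNA over control siRNA) of the 9 genes with its 95% interval in the upper panel, coloured by call, and the number of all tested genes per 0.1 log2 unit in the lower panel. TP53INP1 stands at -3.12, far in the lower tail of all genes, while MDM2, CDKN1A and FDXR stand near 0.

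Levels were compared per kilobase of all annotated exons (GENCODE 29), which is longer than any 1 transcript. How much longer may differ between genes, so close ranks depend on the annotation. The ranges over libraries do not cover this error. With FOXA1 siRNA the order of normalized counts per kb was CCNG1 (549 ± 18.1, SD, n = 3), BTG2 (271 ± 16.9), FDXR (231 ± 16.6), CDKN1A (181 ± 15.4), AEN (91.3 ± 4.85), MDM2 (58.2 ± 0.51), ZMAT3 (34.0 ± 3.16), SESN1 (31.1 ± 2.36) and TP53INP1 (3.93 ± 0.76). The ranges of ZMAT3 and SESN1 overlapped, and those of the other neighbours did not. With control siRNA the order was BTG2 (653 ± 12.6, SD, n = 3), CCNG1 (226 ± 5.19), FDXR (208 ± 2.52), CDKN1A (190 ± 10.5), SESN1 (63.6 ± 0.304), ZMAT3 (57.6 ± 1.10), MDM2 (55.9 ± 3.13), AEN (45.5 ± 3.79) and TP53INP1 (35.1 ± 1.14). There the ranges of ZMAT3 and MDM2 overlapped.

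Relatives of the 9 genes, most of which are not known as p53 targets, were measured beside them. For FDXR these were the ferredoxins FDX1 and FDX2, its partners and not members of its own family. Of 18 tested relatives, 3 rose, 10 fell and 5 did not pass, where 26.8% of all tested genes were called higher and 25.0% lower. Their median log2 fold change was -0.30, against 0.0039 over all tested genes. A change of at least 2-fold was called in 4 of the 18 (TP53INP2, CCNG2, SESN3 and CDKN1C), against 6.98% of all tested genes. The relatives were listed with earlier results of these data known, so these counts are no independent evidence.

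TP53INP2, which acts in autophagy like TP53INP1, had 25.7, 26.6 and 28.5 normalized counts with FOXA1 siRNA and 185, 115 and 185 with control siRNA. It fell with a log2 fold change of -2.51 ± 0.19 (SE, limma adjusted p = 1.77e-11), beside -3.12 for TP53INP1. CCNG2, the second cyclin G gene, went opposite to CCNG1. It had 479, 403 and 496 normalized counts with FOXA1 siRNA and 1375, 1260 and 1221 with control siRNA (log2 fold change -1.49 ± 0.08 SE, limma adjusted p = 8.77e-15). The ratio of CCNG1 to CCNG2 normalized counts was 3.48, 4.14 and 3.56 with FOXA1 siRNA, against 0.510, 0.568 and 0.560 with control siRNA.

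Among the sestrins, SESN3 had 448, 405 and 442 normalized counts with FOXA1 siRNA and 1036, 1108 and 1139 with control siRNA, and fell beside SESN1 (log2 fold change -1.34 ± 0.07 SE, limma adjusted p = 5.42e-15). SESN2, itself a p53 target, is also counted among the 60 other targets below. It was at 289, 244 and 181 against 197, 196 and 225, and the groups overlapped (log2 fold change 0.19, limma adjusted p = 0.258). Without FOXA1 siRNA replicate 3 it was called higher, at 0.37 (limma adjusted p = 0.00874).

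In the BTG and TOB family, which shares the antiproliferative domain of BTG2, BTG1 (log2 fold change -0.64 ± 0.07 SE), TOB1 (-0.40 ± 0.06) and TOB2 (-0.33 ± 0.06) fell and BTG3 rose (0.47 ± 0.08). The other kinase inhibitors of the CDKN1A family fell. CDKN1B (p27) had 588 ± 38.5 normalized counts with FOXA1 siRNA and 862 ± 61.9 with control siRNA (SD, n = 3 each; log2 fold change -0.55 ± 0.07). CDKN1C (p57) had 97.9 ± 8.61 against 202 ± 13.9 (SD, n = 3 each; -1.04 ± 0.13).

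The MDM2 relative MDM4, which binds and restrains p53, was at 381, 396 and 340 normalized counts with FOXA1 siRNA and 370, 419 and 390 with control siRNA (log2 fold change -0.078, limma adjusted p = 0.469). The ratio of MDM2 to MDM4 was 2.02, 1.94 and 2.29 against 2.11, 1.79 and 1.79, with overlap. Beside AEN, the exonuclease gene ISG20L2 rose (0.42 ± 0.06), while ISG20 fell (-0.66 ± 0.25). The fall of ISG20 did not pass with quantile normalization, DESeq2, or without control siRNA replicate 1 or 3 or FOXA1 siRNA replicate 2 (adjusted p up to 0.145). Of the 2 ferredoxin partners of FDXR, FDX1 rose (0.36 ± 0.08), and FDX2 was at -0.092 (limma adjusted p = 0.417). Of the ZMAT genes, ZMAT2 fell (-0.28 ± 0.05) and ZMAT5 did not pass (0.15, limma adjusted p = 0.231), while ZMAT1 was listed at 0. CCNI, a relative of the G cyclins, was at 0.046 (limma adjusted p = 0.488).

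**Figure D3:**
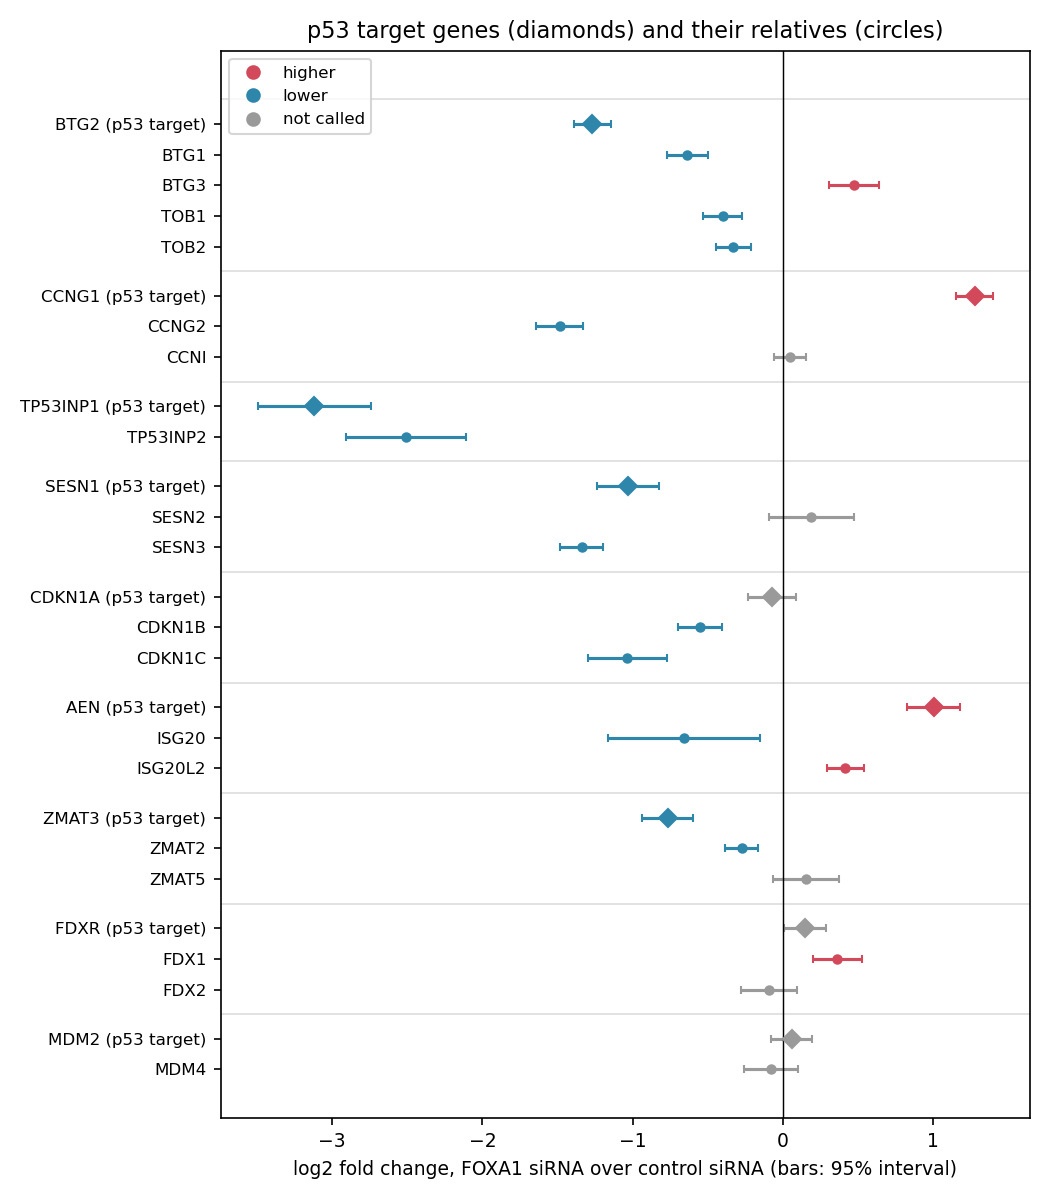
Log2 fold change (FOXA1 siRNA over control siRNA) with its 95% interval for the 9 p53 target genes (diamonds) and their 18 tested relatives (circles), grouped by p53 target gene and coloured by call. For FDXR the circles are its partner ferredoxins FDX1 and FDX2. TP53INP1 and TP53INP2 lie at -3.12 and -2.51, whereas CCNG1 and CCNG2 lie on opposite sides of 0 at 1.28 and -1.49.

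The wider set of 60 other known p53 targets was split as well. Of these, 57 had reads and 52 were tested: 18 rose, 17 fell and 17 did not pass (median log2 fold change -0.051). Over all tested genes 26.8% were called higher and 25.0% lower, which is the background for the role groups below. With equal library totals, 13 were higher and 24 lower, a shift in the same direction as over all genes (3594 higher and 5967 lower, against 4954 and 4617 as deposited). A change of at least 2-fold was called in 7 of the 52, against 6.98% of all tested genes. This list was also chosen with earlier results of these data known, so its counts are no independent evidence.

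Among 6 tested genes of the arrest group, 5 rose and 0 fell, where 26.8% of all tested genes were called higher. GADD45A was the smallest of these rises (log2 fold change 0.27, limma adjusted p = 0.0435), and its groups overlapped. It was named after its value was seen. E2F7, a repressor of E2F target genes, had 525 ± 17.5 normalized counts with FOXA1 siRNA and 235 ± 15.1 with control siRNA (SD, n = 3 each; log2 fold change 1.16 ± 0.09 SE). SFN, stratifin, which holds back entry into mitosis, had 8538 ± 164 against 3877 ± 100 (SD, n = 3 each; 1.14 ± 0.05 SE). The sixth, PLK3, did not pass and was named after its value was seen (0.15, limma adjusted p = 0.485).

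Of 4 genes in the feedback group, 3 rose and 1 fell. RPS27L, a ribosomal protein paralog that binds MDM2, rose (log2 fold change 1.38 ± 0.09 SE), and its reads could be shared with its parent gene RPS27. PPM1D, the phosphatase WIP1 that switches off damage signalling, passed as higher (0.27 ± 0.10, limma adjusted p = 0.0294). Its call was lost with equal library totals, DESeq2 or no filter on low values, and without control siRNA replicate 2 or FOXA1 siRNA replicate 2 (adjusted p up to 0.161). TRIM22, which was listed in this group but is best known as an antiviral protein, fell (-0.77 ± 0.18).

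Of 14 tested apoptosis and autophagy genes, 5 rose, 1 fell and 8 did not pass. DRAM1, a lysosomal regulator of autophagy, had 518 ± 32.8 normalized counts with FOXA1 siRNA and 237 ± 5.98 with control siRNA (SD, n = 3 each; log2 fold change 1.12 ± 0.09 SE). The death receptor gene FAS rose (0.70 ± 0.13), and TP53I3, a quinone reductase-like protein, fell (-0.75 ± 0.15). BAX (0.043, 95% interval -0.10 to 0.19), BBC3 (-0.20, -0.45 to 0.04) and PMAIP1 (-0.16, -0.38 to 0.06), direct triggers of mitochondrial apoptosis, did not pass. They were named after their values were seen. SPATA18 and EDA2R were listed at 0.

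Of 4 DNA repair genes, 2 fell and 0 rose: RRM2B, a p53-induced subunit of ribonucleotide reductase (log2 fold change -0.56 ± 0.09 SE), and XPC, a sensor of DNA lesions (-0.37 ± 0.07). Of 8 tested metabolic genes, 1 rose and 3 fell. PANK1, a kinase of coenzyme A synthesis, rose (0.39 ± 0.10), while NADSYN1, an enzyme of NAD synthesis (-0.49 ± 0.06), and the lysosomal fucosidase gene FUCA1 (-0.36 ± 0.09) fell.

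Of 9 genes of secreted and membrane proteins, 3 rose and 5 fell. ORAI3, a calcium channel subunit, had 313 ± 39.9 normalized counts with FOXA1 siRNA and 659 ± 69.1 with control siRNA (SD, n = 3 each; log2 fold change -1.08 ± 0.09 SE). The stress cytokine gene GDF15 had 337 ± 8.43 against 673 ± 57.0 (SD, n = 3 each; -0.99 ± 0.08 SE). SUSD6 (0.39 ± 0.07) and the growth factor gene TGFA (0.34 ± 0.07) rose. Of the remaining 7 tested targets, 1 rose, the helicase gene ASCC3 (0.25 ± 0.06), and 5 fell, with RNF19B (-0.74 ± 0.09) and the small GTPase gene RAP2B (-0.58 ± 0.06) among them.

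The regulators of p53 were measured as mRNA only, which does not show the activity of the proteins. Of 20 tested genes, 9 rose, 2 fell and 9 did not pass, where 26.8% of all tested genes were called higher and 25.0% lower (median log2 fold change 0.095), and none of the calls reached 2-fold. TP63 had 3759, 3633 and 3810 normalized counts with FOXA1 siRNA and 4944, 4779 and 5029 with control siRNA, and it fell (-0.40 ± 0.05, limma adjusted p = 4.75e-08). TP73 was at 9.50 ± 2.68 and 11.3 ± 2.63 (SD, n = 3 each), near the limit of the filter.

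Among kinases that signal DNA damage to p53, CHEK2 (0.63 ± 0.07), CHEK1 (0.50 ± 0.07) and ATR (0.35 ± 0.06) rose, while ATM (0.10, limma adjusted p = 0.149) and HIPK2 (0.067, limma adjusted p = 0.480) did not pass. CDKN2A, which encodes the MDM2 inhibitor ARF besides the kinase inhibitor p16, rose (0.38 ± 0.06). The ribosomal protein genes RPL5 (0.43 ± 0.05) and RPL11 (0.26 ± 0.05), whose free proteins bind MDM2, rose, although RPL11 did not pass with quantile normalization (0.097, limma adjusted p = 0.0577). The inhibitor gene PPP1R13L (0.54 ± 0.06), the ubiquitin ligase gene RCHY1 (0.45 ± 0.10) and the deubiquitinase gene USP7 (0.30 ± 0.05) rose, and TP53BP1, a scaffold at DNA breaks, fell (-0.40 ± 0.05). EP300 (0.085), CREBBP (-0.019), KAT5 (-0.14), COP1 (-0.043), SIRT1 (-0.012) and TP53BP2 (-0.092) did not pass. KAT5 passed as lower with equal library totals and quantile normalization, TP53BP2 as lower with equal library totals, and EP300 as higher without FOXA1 siRNA replicate 2.

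Genes that p53 lowers through p21 and DREAM were higher with FOXA1 siRNA. All 20 of 20 tested members rose, where 26.8% of all tested genes were called higher. Their log2 fold changes were 0.39 to 1.37, with a median of 0.72 against 0.0039 over all tested genes. In all 20 the groups did not overlap, against 57.6% of all tested genes. CDKN1A, which encodes p21, was not called (-0.071, limma adjusted p = 0.468), and its part in these rises was not tested. The mitotic kinase gene PLK1 had 2549 ± 131 normalized counts with FOXA1 siRNA and 988 ± 18.6 with control siRNA (SD, n = 3 each; 1.37 ± 0.06 SE). MYBL2, a transcription factor of the cell cycle, had 2177 ± 146 against 962 ± 102 (SD, n = 3 each; 1.18 ± 0.07 SE). Cell cycle genes were already known to rise in these samples when the list was chosen, so this count is no independent evidence.

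**Figure D4:**
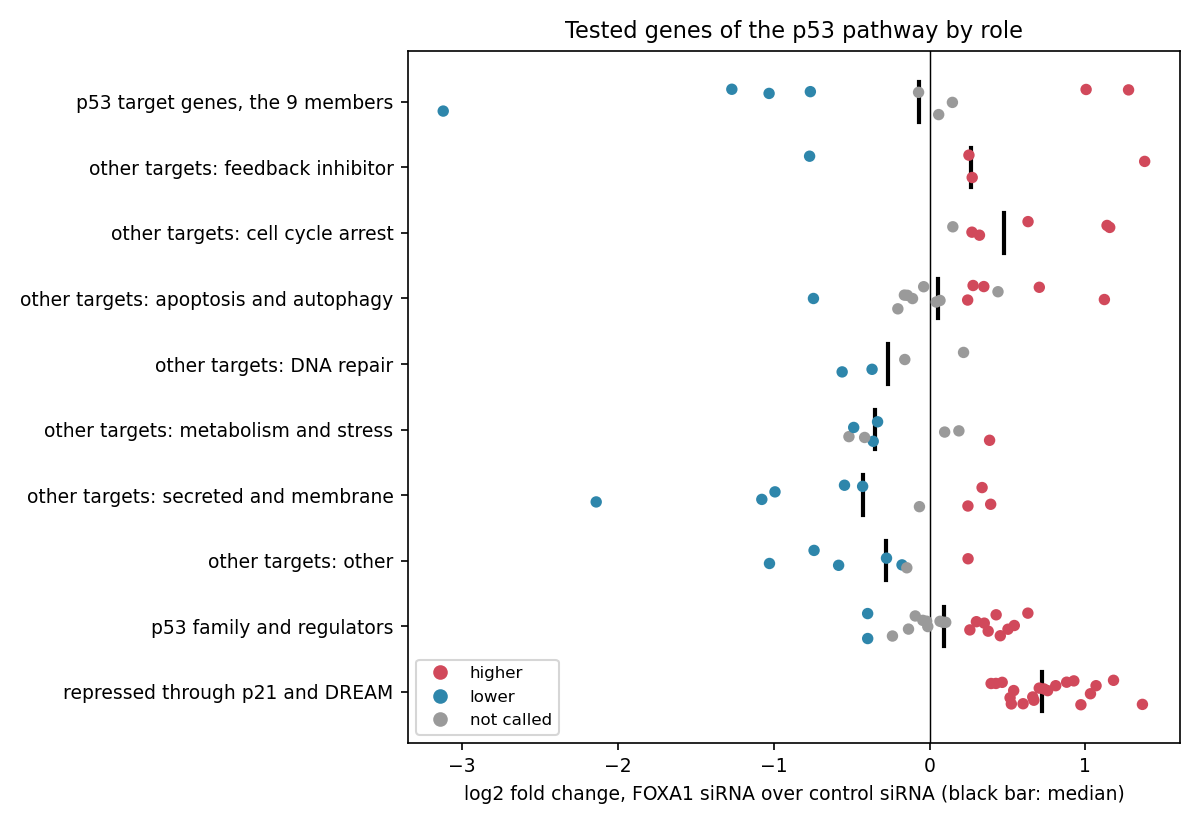
Log2 fold change (FOXA1 siRNA over control siRNA) of the 9 p53 target genes, the 52 other tested targets by the role they were listed under, 20 genes of the p53 family and its regulators and 20 genes repressed through p21 and DREAM. Points are genes coloured by call and black bars are medians: targets lie on both sides of 0, and the repressed genes all lie above 0, between 0.39 and 1.37.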

How the data were processed

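Total RNA libraries from 6 samples were sequenced. Per the file headers, each deposited signal value is a normalized count of 1 gene in 1 sample (divided by a size factor), and the table adds the authors' log2 fold change, test score and p-values. HISAT2, DESeq2, GRCh38 and GRCm38 are listed with no version or role (gene IDs are human), per the submitters' processing notes. Strand and read counting are not given in the sources used here. Of 61862 lines, 3 broken ones were dropped. In every sample 100% of values below 2000 reads were whole multiples of 1 step to within 0.01 read, so reads were recovered.

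Genes with a mean of at least 10 were fitted with limma 3.58.1 (R 4.3.3) on log2(normalized count + 1), with trend and robust options and Benjamini-Hochberg adjustment over all genes. This scale understates changes of low genes. The limma steps were also run on simulated counts in which few genes changed. In these data 51.8% of tested genes were called, so that run does not vouch for the calls here. Alternatives were 2 pseudocounts, 2 filters, 2 scalings, a simpler variance model, a replicate block, each sample left out, edgeR 4.0.16 (9653 genes called) and DESeq2 1.42.0 (8493). The genes, lists and mismatch limit were chosen with earlier results of these data known. Named were the 9 genes, all tested regulators and relatives, and from each role group up to 2 rises and 2 falls by size of change, if their mean was 50 or more. A gene of the regulator list is not reported here.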

Additional observations from a re-analysis of the deposited data

How the results depend on the processing

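The 6 calls among the 9 p53 targets kept their direction and passed in all 16 alternatives, and the count was 2 higher and 4 lower in each, apart from 3 higher without FOXA1 siRNA replicate 3 (FDXR). TP53INP1 ranged from -3.23 to -2.92 on the log2 scale, BTG2 from -1.37 to -1.24, CCNG1 from 1.18 to 1.29, SESN1 from -1.13 to -0.96, AEN from 0.91 to 1.05 and ZMAT3 from -0.86 to -0.70. CDKN1A ranged from -0.17 to -0.0065 and FDXR from 0.05 to 0.20. Leaving out 1 sample gave 8560 to 9180 calls over all genes, 16 to 19 other p53 targets higher and 14 to 16 lower. The sign turned only in genes that were not called. With equal library totals it did so for MDM2 (-0.039), HIPK2 (-0.031), EP300 (-0.012) and CCNI (-0.052), and with quantile normalization for TP73 (0.052) and CCNI (-0.026). With 1 sample left out it did so for CREBBP (-0.064 to 0.036), SIRT1 (-0.10 to 0.048) and CCNI (-0.0012 to 0.071). The cause was not tested. Samples of the same number did not deviate together (correlations of -0.0109 to 0.0109), so no shared effect of the number was seen. Whether a number marks a shared culture or batch is not stated in the labels, and these correlations cannot decide it. With a replicate block 9332 genes were called, 17 other p53 targets higher and 15 lower, and no call among the 9 changed. TP53INP1 rests on 20 to 24 reads per FOXA1 siRNA library, so counting error limits its value more than that of the other 8.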

Other observations

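KRT6A, a squamous keratin gene used in the check of cell type, had 178, 72.1 and 64.0 normalized counts with FOXA1 siRNA and 50.4, 38.3 and 802 with control siRNA, so 1 control library stood far above the other 5. Without control siRNA replicate 3, the calls among the 9 p53 targets were the same 2 higher and 4 lower.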
